A study of Mus musculus with 32 samples.

Results

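The synaptic vesicle release machinery was taken as 41 genes whose proteins sit on synaptic vesicles, sense calcium, fuse vesicles with the plasma membrane, organise the active zone or retrieve vesicle membrane. They were found by symbol in the total RNA count table. All 41 were among its 51267 features, and all 41 passed the filter on low counts that left 17173 features for testing. The cells were primary hippocampal neurons cultured from newborn (P0) mice and treated at 16 days in vitro for 30 minutes. DMSO, the solvent, was given to the controls, with 4 libraries. The group named DHPG received 30 µM of DHPG, which stimulates the metabotropic glutamate receptors mGluR1 and mGluR5, and held 6 libraries. The group named FSK received 50 µM of forskolin, a plant diterpene that turns on adenylyl cyclases, the enzymes that make cAMP, and also held 6 libraries. The labels name no strain, genotype or transgene for any group, and they do not state whether the libraries of a group came from separate cultures. The p-values below therefore measure the spread between these libraries, which may be technical.

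A synaptic vesicle is filled with transmitter, tethered near the plasma membrane and primed at the active zone, where calcium entry triggers its fusion. Fusion is driven by SNARE proteins, which zip together from the vesicle and the plasma membrane, while synaptotagmins provide the calcium trigger and complexins hold the complex in check. After fusion the membrane is retrieved by dynamin-dependent endocytosis, and the SNAREs are taken apart by the ATPase NSF. In hippocampal neurons several of these proteins, synapsin, rabphilin and RIM among them, are known substrates of the cAMP-dependent kinase PKA. The measurements here are of RNA and do not report on phosphorylation or release.

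The promoters of these genes are shown because forskolin raises cAMP, and CREB, the transcription factor that PKA activates, binds the cAMP response element. RefSeq promoter windows of 300 bases (GRCm38.p6), from 250 bases before to 50 after a gene start, were at hand for 31 of the 41 genes, in 42 windows. The full element TGACGTCA, which reads the same on both strands and contains TGACG on each, was found in 588 of the 32851 windows of all genes (1.79%). Counted per gene, 2.03% of all genes and 2 of the 31 (6.45%), Sh3gl2 and Syn1, held it. The partial site TGACG, searched on both strands, was in 23.0% of all genes and in 9 of the 31 (29.0%): Cplx1, Rab3a, Rab3b, Sh3gl2, Stx1a, Syn1, Synj1, Syt2 and Unc13a. A match describes letters only. The 5 sequences below are the part of a window that lies upstream of the annotated gene, 5′ to 3′ on the gene's strand, with the matching letters in capitals. Syn1 and Sh3gl2 are shown for the full element, which starts at -159 and -37 relative to the gene start. Rab3a and Stx1a hold the partial site and have RNA values treated in detail below. Bsn, whose RNA had the largest difference between forskolin and DMSO in size, has no match in its window.
Syn1, chrX:20920919-20921168, minus strand: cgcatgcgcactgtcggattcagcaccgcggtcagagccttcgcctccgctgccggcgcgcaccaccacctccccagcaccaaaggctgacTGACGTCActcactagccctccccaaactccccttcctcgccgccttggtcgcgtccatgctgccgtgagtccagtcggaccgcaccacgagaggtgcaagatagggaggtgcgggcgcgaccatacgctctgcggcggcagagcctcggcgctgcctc
Sh3gl2, chr4:85205206-85205455, plus strand: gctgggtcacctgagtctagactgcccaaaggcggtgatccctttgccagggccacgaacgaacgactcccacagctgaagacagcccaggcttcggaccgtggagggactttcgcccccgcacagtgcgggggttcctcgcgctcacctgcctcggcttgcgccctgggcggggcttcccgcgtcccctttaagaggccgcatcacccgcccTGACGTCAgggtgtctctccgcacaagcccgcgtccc
Rab3a, chr8:70754453-70754702, plus strand: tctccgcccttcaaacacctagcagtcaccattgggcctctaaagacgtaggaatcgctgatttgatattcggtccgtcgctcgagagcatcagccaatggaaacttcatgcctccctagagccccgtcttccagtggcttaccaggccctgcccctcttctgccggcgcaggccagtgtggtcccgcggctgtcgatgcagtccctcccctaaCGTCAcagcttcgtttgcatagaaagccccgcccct
Stx1a, chr5:135023232-135023481, plus strand: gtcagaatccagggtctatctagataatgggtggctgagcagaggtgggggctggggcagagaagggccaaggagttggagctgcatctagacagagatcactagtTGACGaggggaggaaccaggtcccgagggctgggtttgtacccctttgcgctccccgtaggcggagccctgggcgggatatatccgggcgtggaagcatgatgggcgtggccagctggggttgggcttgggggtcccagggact
Bsn, chr9:108190420-108190633, minus strand: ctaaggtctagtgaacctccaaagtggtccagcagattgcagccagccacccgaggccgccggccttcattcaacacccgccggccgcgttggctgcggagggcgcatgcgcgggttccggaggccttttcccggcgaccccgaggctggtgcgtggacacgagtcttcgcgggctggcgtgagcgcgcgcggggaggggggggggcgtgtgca

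Library depth and composition divided the samples in a way the labels do not describe. A deep set of 7 libraries, with 38409761 to 59958357 counts, consisted of DHPG 6, DMSO 2 to 4 and FSK 4 to 6, and mitochondrial rRNA made up 10.8 to 27.7% of it per library. The other 9, a shallow set of 20676925 to 24892774 counts and 1.47 to 2.92% mitochondrial rRNA, were DMSO 1, FSK 1 to 3 and DHPG 1 to 5. Treatment and library set were therefore partly confounded, and comparisons are given with a term for the set as well. FSK 4 and FSK 5 stood apart from the other 14 libraries. Summed over the 41 genes, their levels were 5308 and 5613 CPM (counts relative to the library's TMM-scaled size), against 8128 to 10720 in the other 14. For 30 of the 41 genes FSK 4 and FSK 5 were the lowest libraries of all 16, against 17.0% of all tested features, and for none were they the highest (18.8% of all features). The 14 pan-neuronal markers summed to 2687 and 2989 CPM in FSK 4 and FSK 5 and to 3629 to 4865 CPM in the others, with no marker at 0 in any library. The 14 microglia markers summed to 256 and 431 CPM there and to 24.1 to 58.0 CPM in the others, also with none at 0. The 10 astrocyte markers summed to 6863 and 7615 CPM, against 3362 to 6951 CPM. Excitatory and inhibitory neuron markers were likewise above 0 in every library. The part of these differences in the results below was not tested, so each comparison is also given without FSK 4 and FSK 5. In RNA from whole cultures, fewer cells of a type and less RNA per cell cannot be told apart.

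The treatments were checked on immediate-early genes, whose transcription in neurons needs no new protein and starts soon after a stimulus. Of 8 such genes 5 rose with forskolin against DMSO, among them Fosb (3.996 ± 0.45 log2, adjusted p = 0.00067), Arc (2.18 ± 0.31, adjusted p = 0.007), Nr4a1 (2.36 ± 0.41, adjusted p = 0.017) and Fos (2.55 ± 0.45, adjusted p = 0.021), by edgeR's quasi-likelihood test. None of the 8 passed with DHPG, where Arc had 1.75 ± 0.31 (adjusted p = 0.26).

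Against DMSO at 30 minutes, forskolin gave 1 call among the 41 release genes, while most of their values were negative. Bsn, which encodes the active zone scaffold bassoon, fell, and it was the only 1 of the 41 genes to pass an adjusted p of 0.05 (2.44% of them). Over all tested features 0.46% passed as lower and 0.349% as higher. The median log2 fold change of the 41 genes was -0.28, with 11 positive and 30 negative values between -0.79 and 0.29, while the median of all features was 0.02. At an unadjusted p under 0.05, 12 of the 41 were lower and none was higher, against 1790 lower and 1868 higher of the 17173 features. Without FSK 4 and FSK 5 no gene of the 41 passed, where 0.0718% of all features were lower and 0.155% higher, and their median was -0.05.

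**Figure D1:**
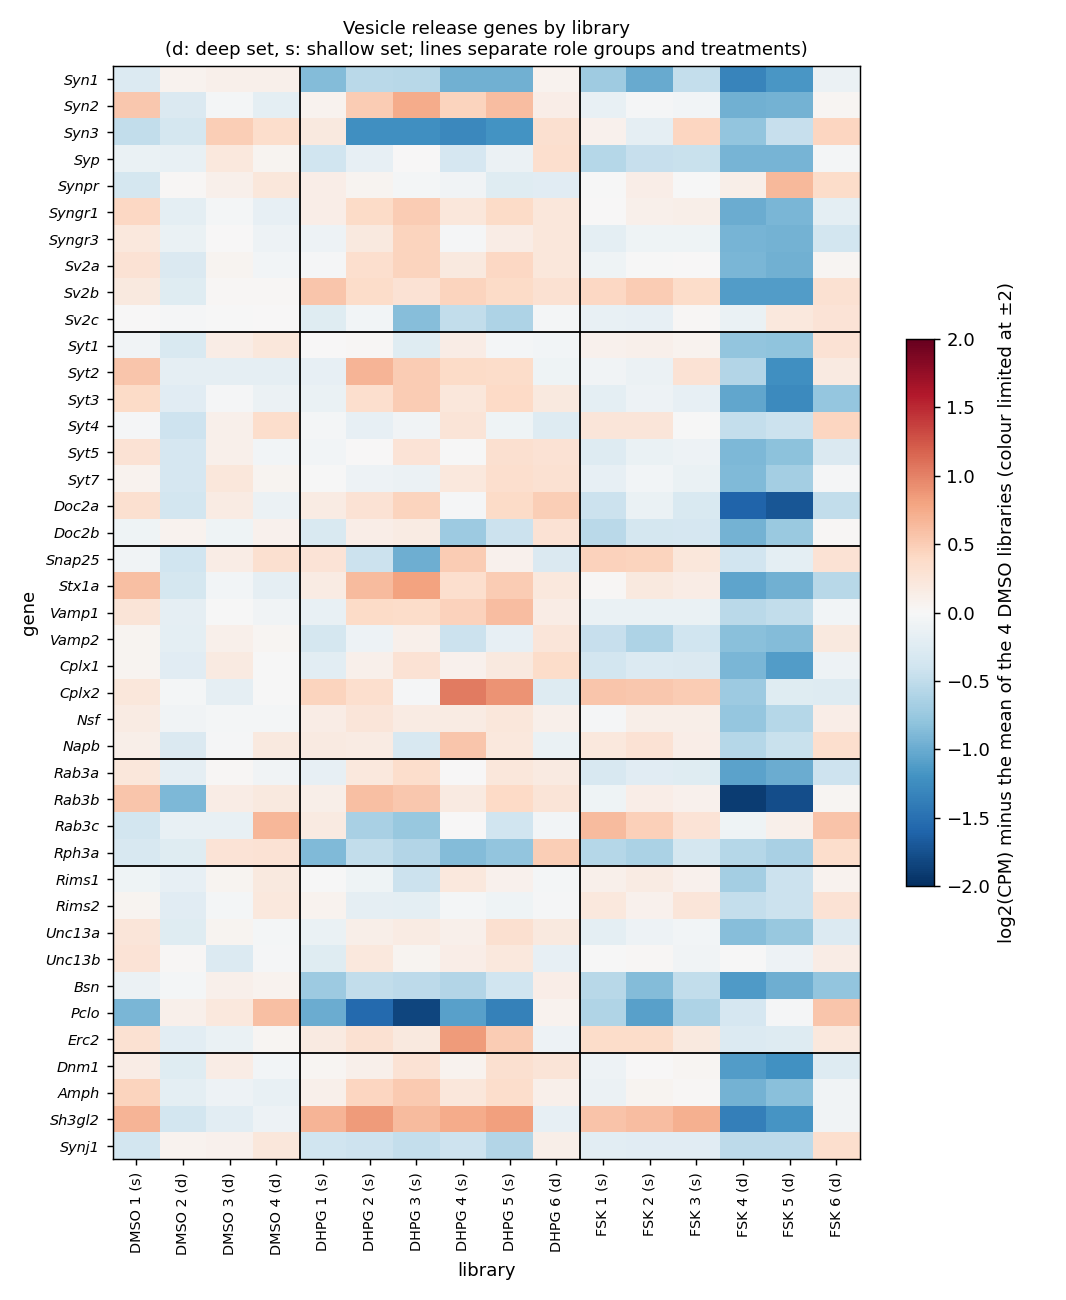
Heat map of the 41 release genes (rows, ordered by role) in the 16 libraries (columns, marked d for the deep and s for the shallow set), coloured by log2(CPM) minus the mean of the 4 DMSO libraries. The FSK 4 and FSK 5 columns are blue for most genes, and for 30 of the 41 they hold the lowest values of the 16 libraries.

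Library set and the 2 outlying libraries moved this comparison in different directions. With a term for the library set, 6 of the 41 were lower (Bsn, Doc2a, Rab3a, Stx1a, Syngr3 and Syt3) and none was higher, where 5.99% of all features were lower and 3.45% higher (9.45% in all), and the median of the 41 was -0.34. Within the deep set, 3 FSK against 3 DMSO libraries, 10 were lower and none higher, where 7.49% of all features were lower and 4.3% higher, and FSK 4 and FSK 5 made up 2 of the 3 FSK libraries. Within the shallow set, 3 FSK libraries against DMSO 1 alone, none passed and the median was -0.29. Without FSK 4 and FSK 5 and with the set term, none passed and the median was -0.08. Adjusted p-values are from edgeR's quasi-likelihood test with Benjamini-Hochberg adjustment over all features, here and below.

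DHPG against DMSO gave no call among the 41 genes. Over all features 0.00582% passed in either direction, and at an unadjusted p under 0.05 the 41 genes had 1 higher and 4 lower, while all features had 747 higher and 1382 lower. DESeq2's Wald test also called none of the 41, and limma-voom with sample quality weights called 12 higher and 7 lower, where it called 15.8% of all features higher and 18.9% lower. The median log2 fold change of the 41 was 0.13, and -0.03 with the set term, where only DHPG 6 is in the deep set and only DMSO 1 of the controls in the shallow set. All 6 DHPG libraries were above all 4 DMSO libraries for Sv2b (0.641% of all features) and below them for Sv2c (0.67% of all features). Without FSK 4 and FSK 5 none of the 41 passed either, with or without the set term (0.0% of all features in both). Without the term Sv2b then had 0.38 ± 0.09 (adjusted p = 0.16), beside 0.38 ± 0.28 (adjusted p = 0.49) in all 16 libraries.

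Forskolin against DHPG showed the largest number of differences among the release genes. Of the 41, 15 were lower with forskolin and 2, Rab3c and Sv2c, were higher, 41.5% in all, where 14.4% of all features were lower and 16.3% higher. The 15 were Syn2, Syp, Syngr1, Syngr3 and Sv2a of the vesicle membrane, the calcium sensors Syt3, Syt5 and Doc2a, Stx1a, Vamp1 and Cplx1 of the fusion complex, Rab3a, Unc13a, and Dnm1 and Amph of endocytosis. Their median over the 41 was -0.36 (10 positive, 31 negative, -0.96 to 0.73), beside 0.03 over all features. The comparison shares its FSK libraries with the comparison of forskolin with DMSO. Adding the library set kept 13 of the 15 lower calls and neither of the higher ones (11.9% of all features lower, 11.4% higher).

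The same comparison changed without FSK 4 and FSK 5. None of the 41 then passed, where 0.0179% of all features did, and their median was -0.18. With the set term as well, 6 of the 15 remained lower (Cplx1, Doc2a, Rab3a, Stx1a, Syt3 and Vamp1) and 3 were higher (Pclo, Rab3c and Synj1), where 4.48% of all features were lower and 4.79% higher. Their median was -0.18 in that fit too. Leaving out 1 library at a time gave between 5 and 18 calls, while 10.6 to 33.9% of all features passed. There were 5 without DHPG 3 (11.2% of all features) and 5 without FSK 5 (10.6%), counts whose share of the 41 is close to that of all features in both directions together. All 5 were lower in each of these fits. Of all features, 808 of 17125 were lower without DHPG 3, and 830 of 17021 without FSK 5. There were 8 without DHPG 5 (13.9% of all features), 10 without DHPG 2 (17.7%) and 10 without FSK 4 (15.1%). Within the deep set, where DHPG 6 was the only DHPG library, 12 of the 41 were lower and Synpr was higher (8.84% and 6.27% of all features). Within the shallow set, with 3 FSK and 5 DHPG libraries, none of the 41 passed (0.0466% of all features did) and the median was -0.12. All 3 shallow FSK libraries were nonetheless below all 5 shallow DHPG libraries for 10 genes (Syn2, Syp, Syngr1, Syt5, Doc2a, Cplx1, Nsf, Rab3a, Dnm1 and Amph), 24.4% of the 41 against 10.3% of all features. They were above for Rab3c, Rims2 and Synj1, 7.32% against 9.68%. In these 8 libraries the pan-neuronal markers summed to 4043 to 4167 CPM with forskolin and 4020 to 4865 CPM with DHPG, and the astrocyte markers to 5067 to 5565 and 3362 to 4844 CPM. The part of these marker levels in the 10 genes was not tested.

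**Figure D2:**
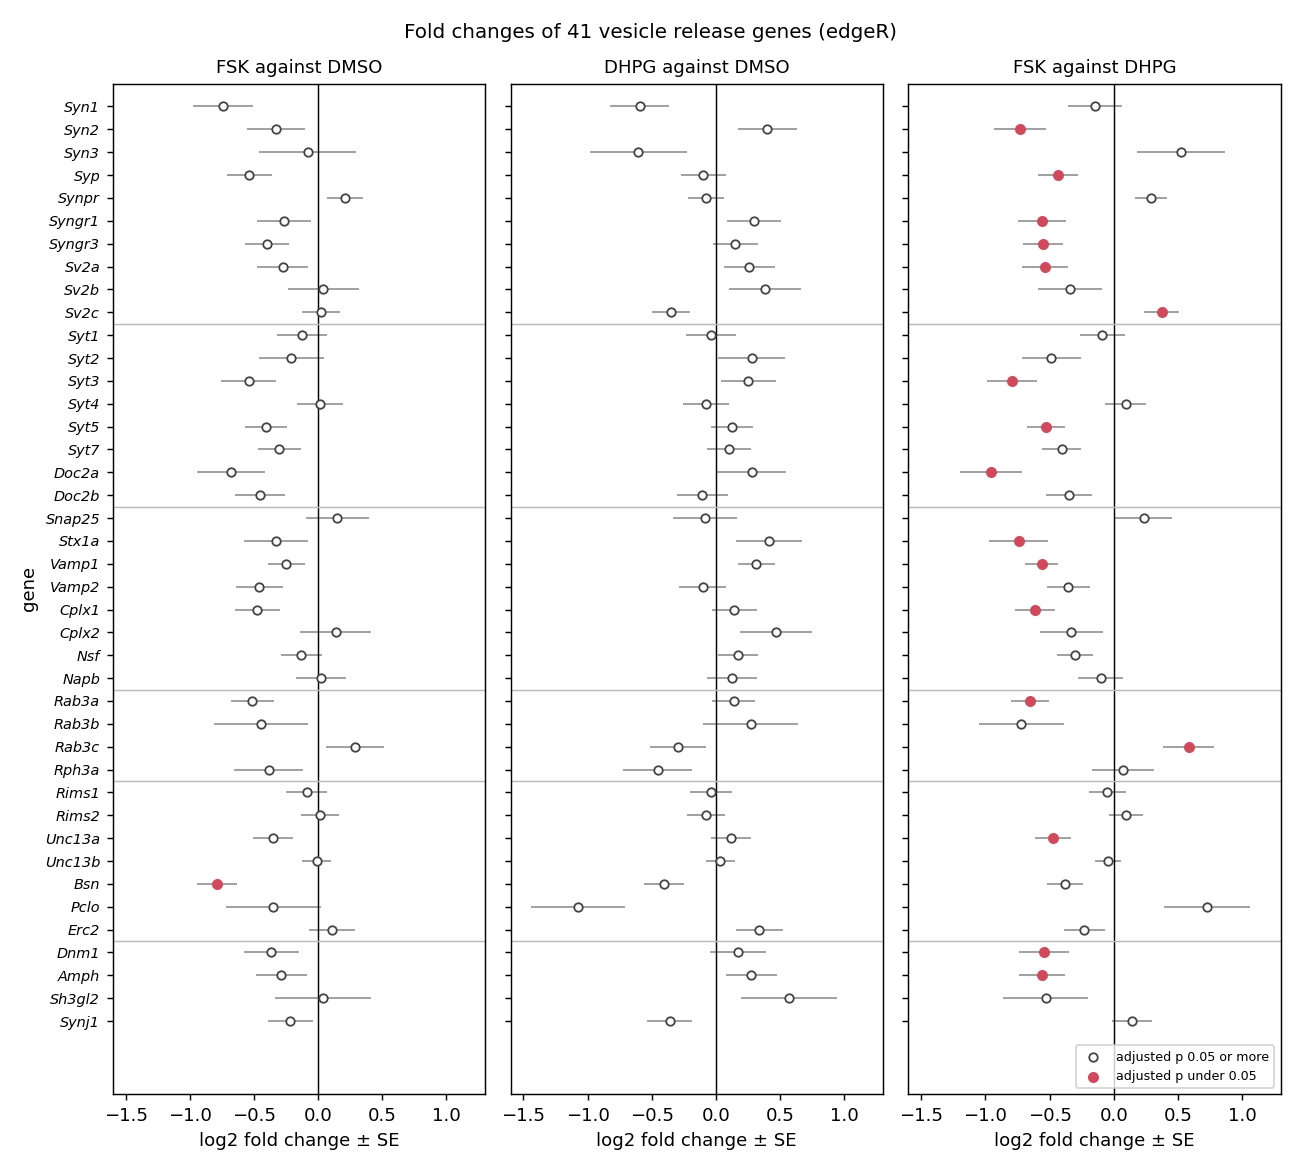
Log2 fold change ± SE of each of the 41 genes (rows, by role) in the 3 comparisons, with genes of adjusted p under 0.05 filled. Bsn is filled in forskolin against DMSO, no gene is filled in DHPG against DMSO, and 17 are filled in forskolin against DHPG, 15 of them to the left of 0.

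The proteins of the vesicle membrane include the synapsins, which tether vesicles to each other, the tetraspan proteins synaptophysin, synaptoporin and synaptogyrin, and the SV2 glycoproteins. None of the 10 genes passed in forskolin against DMSO (median -0.27) or in DHPG against DMSO (0.04). Against DHPG, forskolin had 1 higher and 5 lower of the 10, with a median of -0.39, where 16.3% of all features were higher and 14.4% lower. In that comparison no gene of any role passed without FSK 4 and FSK 5 when no set term was used. Syn1 (synapsin I) had 73.6, 93.0, 95.8 and 95.1 CPM in DMSO 1 to 4, the lowest, median and highest values being 45.5, 54.5 and 93.4 CPM with DHPG and 35.7, 49.5 and 82.4 CPM with forskolin. Levels below are listed in the same form, with DHPG and FSK summarised by their lowest, median and highest values unless stated otherwise. The DMSO libraries overlapped both groups, because DHPG 6 and FSK 6, deep libraries, were high at 93.4 and 82.4 CPM. Its log2 fold change with forskolin against DMSO, -0.74 ± 0.23 (± SE, as throughout), was the second largest of the 41 in size and did not pass (adjusted p = 0.1), nor did that of DHPG against DMSO, -0.59 ± 0.23 (adjusted p = 0.4). Forskolin and DHPG differed by -0.15 ± 0.21 (adjusted p = 0.6).

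Syn2 (synapsin II) stood at 1017, 575, 683 and 612 CPM in DMSO, at 735, 977 and 1179 CPM in DHPG and at 363, 655 and 724 CPM in FSK. Every FSK library was below every DHPG library, and DMSO 1, from the shallow set, was as high as the DHPG libraries. The fall against DHPG was -0.73 ± 0.20 (adjusted p = 0.021), and -0.48 without FSK 4 and FSK 5 (adjusted p = 0.1). Against DMSO Syn2 had -0.33 ± 0.22 with forskolin (adjusted p = 0.42) and 0.40 ± 0.23 with DHPG (adjusted p = 0.42). Synapsins I and II thus had values of opposite sign with DHPG against DMSO, neither of which passed, and this difference between the genes was not tested.

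Syp encodes synaptophysin, the vesicle protein that binds the v-SNARE synaptobrevin. Its levels were 840.2, 833, 1064 and 958 CPM in DMSO, 700.3, 833 and 1158 CPM in DHPG and 481, 643 and 897 CPM in FSK. The FSK range reached into both other groups only through FSK 6, and the other 5 FSK libraries were below all DMSO and DHPG libraries. Against DHPG it fell by 0.44 ± 0.16 on the log2 scale (adjusted p = 0.046; -0.27 without FSK 4 and FSK 5, adjusted p = 0.23), and against DMSO the value was -0.54 ± 0.17 (adjusted p = 0.11).

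The synaptogyrins Syngr1 and Syngr3, tetraspan relatives of synaptophysin, were both lower with forskolin than with DHPG. Syngr1 had 608, 398, 443 and 409 CPM in DMSO, 502, 567 and 652 CPM in DHPG and 230.1, 432 and 495 CPM in FSK, with no overlap between DHPG and FSK. Its change against DHPG was -0.56 ± 0.19 (adjusted p = 0.036), and -0.30 without FSK 4 and FSK 5 (adjusted p = 0.13). Syngr3 had 229, 181, 198 and 185 CPM in DMSO, 184, 221 and 267 CPM in DHPG and 102, 162 and 186 CPM in FSK, where FSK 2 and FSK 3 overlapped the lowest DHPG library. It changed by -0.55 ± 0.15 (adjusted p = 0.022), or -0.34 without those 2 libraries, FSK 4 and FSK 5 (adjusted p = 0.096).

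Among the SV2 glycoproteins, Sv2a and Sv2c passed in opposite directions. Sv2a, the binding site of the antiepileptic drug levetiracetam, had 349.9, 234, 295 and 274 CPM in DMSO, 281, 347 and 389 CPM in DHPG and 147, 275 and 292 CPM in FSK. FSK 4 and FSK 5 were at 151 and 147 CPM, and the other FSK libraries lay within the DMSO range. Against DHPG it fell (-0.53 ± 0.18, adjusted p = 0.035), a call lost with the set term (-0.44, adjusted p = 0.055) and without FSK 4 and FSK 5 (-0.29, adjusted p = 0.13). Sv2c had 22.8, 22.1, 22.5 and 22.8 CPM in DMSO, 12.5, 17.5 and 21.98 CPM in DHPG and 20.1, 21.7 and 27.3 CPM in FSK. The 4 DMSO libraries lay close together, all above every DHPG library, and the FSK libraries lay on both sides of them. Sv2c was higher with forskolin than with DHPG (0.37 ± 0.13, adjusted p = 0.045), also a call lost with the set term (0.30, adjusted p = 0.088) and without FSK 4 and FSK 5 (0.36, adjusted p = 0.14). Sv2b passed in no comparison. It had 564, 414, 501 and 503 CPM in DMSO and 602, 639.5 and 727 CPM in DHPG, without overlap (0.38 ± 0.28, adjusted p = 0.49), and FSK 4 and FSK 5 were both at 227.5 CPM beside 609 to 702 CPM in the other FSK libraries. Syn3, at 1.06 to 3.64 CPM over all 16 libraries, and Synpr, at 27.6 to 55.1 CPM, passed in none either.

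The calcium sensors comprise the synaptotagmins and the Doc2 proteins, whose C2 domains bind membranes when calcium rises. Of the 8 genes none passed in either comparison with DMSO (medians -0.35 with forskolin and 0.11 with DHPG), and 3 were lower with forskolin than with DHPG (median -0.45), as were 14.4% of all features. Syt1, the main fast sensor of forebrain neurons, had 582, 490.4, 671 and 715 CPM in DMSO, 513, 602 and 674 CPM in DHPG and 349.9, 642 and 740.1 CPM in FSK. The groups overlapped throughout except for FSK 4 and FSK 5, at 353 and 349.9 CPM, and no comparison passed, with -0.13 ± 0.20 for forskolin against DMSO (adjusted p = 0.75).

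Syt3, a synaptotagmin of high calcium affinity, had 70.2, 46.1, 52.9 and 49.6 CPM in DMSO 1 to 4, 49.3, 65.8 and 76.4 CPM in DHPG and 22.3, 39.4 and 50.2 CPM in FSK. The 3 deep FSK libraries, at 22.3 to 31.5 CPM, were below all 3 deep DMSO libraries, and the shallow FSK libraries, at 47.3 to 50.2 CPM, were below DMSO 1. Against DHPG the fall was -0.79 ± 0.19 (adjusted p = 0.017). It remained without FSK 4 and FSK 5 once the library set was a term (-0.55 ± 0.12, adjusted p = 0.042), but not without that term (-0.56, adjusted p = 0.09). Against DMSO it had -0.54 ± 0.21 (adjusted p = 0.16), and -0.72 ± 0.15 with the set term, which passed (adjusted p = 0.017) but did not without FSK 4 and FSK 5 (-0.50 ± 0.14, adjusted p = 0.12).

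Doc2a, a high-affinity sensor linked to spontaneous and asynchronous release, had the largest fall with forskolin against DHPG of the 41. It stood at 17.4, 10.8, 15.6 and 12.9 CPM in DMSO, 13.7, 17.6 and 19.6 CPM in DHPG and 4.25, 10.2 and 12.7 CPM in FSK, and no FSK library reached the lowest DHPG library. The change was -0.96 ± 0.24 (adjusted p = 0.017), and -0.63 ± 0.14 without FSK 4 and FSK 5 with the set term (adjusted p = 0.042; -0.63 and adjusted p = 0.09 without the term). Against DMSO it had -0.68 ± 0.27 (adjusted p = 0.16), the smallest unadjusted p among the sensors, and -0.82 ± 0.25 with the set term (adjusted p = 0.048). With the set term and without FSK 4 and FSK 5 that value was -0.40 ± 0.16 (adjusted p = 0.21). Syt5 stood at 107, 69.5, 94.1 and 84.4 CPM in DMSO, 84.0, 96.7 and 109 CPM in DHPG and 47.1, 72.2 and 82.0 CPM in FSK, again with FSK wholly below DHPG. It fell by 0.53 ± 0.15 on the log2 scale (adjusted p = 0.021; -0.34 without FSK 4 and FSK 5, adjusted p = 0.1).

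Syt7, a slow sensor of asynchronous release and vesicle replenishment, had 71.0, 53.5, 79.2 and 70.6 CPM in DMSO, 62.3, 73.1 and 85.4 CPM in DHPG and 36.9, 61.1 and 66.9 CPM in FSK. The groups overlapped, and it did not pass against DHPG (-0.40 ± 0.15, adjusted p = 0.054) or against DMSO (-0.30 ± 0.17, adjusted p = 0.31). Syt4, a synaptotagmin of weak calcium binding found on dense-core vesicles, had 83.7, 63.9, 91.3 and 108 CPM in DMSO, 71.2, 80.8 and 102 CPM in DHPG and 61.4, 92.9 and 115 CPM in FSK. Its values were 0.02 ± 0.18 for forskolin against DMSO (adjusted p = 0.97), -0.08 ± 0.18 for DHPG (adjusted p = 0.84) and 0.09 ± 0.16 between the treatments (adjusted p = 0.68). Syt2, at 7.48 to 28.1 CPM over the 16 libraries, and Doc2b, at 19.0 to 44.8 CPM, passed in no comparison.

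The fusion complex consists of the SNAREs syntaxin, SNAP-25 and synaptobrevin, the complexins that bind them, and NSF with its adaptor β-SNAP (Napb). None of the 8 genes passed against DMSO with forskolin (median -0.19) or DHPG (0.16), and 3 were lower with forskolin than with DHPG (median -0.34), as were 14.4% of all features. Snap25, the plasma membrane SNARE, had 419, 333, 487 and 549 CPM in DMSO, 223, 412 and 625 CPM in DHPG and 339, 527 and 602 CPM in FSK. All groups overlapped, and the DHPG libraries alone spanned the values of nearly all others. Its values were 0.15 ± 0.25 for forskolin against DMSO (adjusted p = 0.77) and -0.08 ± 0.25 for DHPG (adjusted p = 0.87).

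Stx1a (syntaxin 1A, a plasma membrane SNARE) had 125, 64.5, 79.5 and 72.5 CPM in DMSO, 92.3, 111 and 144 CPM in DHPG and 39.8, 70.0 and 94.0 CPM in FSK. DMSO 1 was higher than the 3 deep DMSO libraries, and within each library set every FSK library was below every DMSO library. The deep FSK libraries ran from 39.8 to 56.4 CPM against 64.5 to 79.5 CPM, and the shallow ones from 83.6 to 94.0 CPM against 125 CPM. For 10 of the 41 genes the 3 deep FSK libraries were below the 3 deep DMSO libraries, against 15.6% of all features, and for 25 the 3 shallow FSK libraries were below DMSO 1, against 39.9%. Stx1a had -0.33 ± 0.25 against DMSO without a set term (adjusted p = 0.48) and -0.54 ± 0.15 with it (adjusted p = 0.038). The latter was -0.34 ± 0.14 without FSK 4 and FSK 5 (adjusted p = 0.22). Against DHPG it fell by 0.74 ± 0.23 (log2, adjusted p = 0.027), and by 0.46 ± 0.12 with the set term and without FSK 4 and FSK 5 (adjusted p = 0.043; -0.48 and adjusted p = 0.13 without the term).

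The synaptobrevins Vamp1 and Vamp2 are the vesicle SNAREs. Vamp1 had 50.0, 36.7, 41.4 and 39.8 CPM in DMSO, 37.6, 54.0 and 63.8 CPM in DHPG and 28.6, 38.0 and 40.1 CPM in FSK. The 3 shallow FSK libraries were all at 38.0 or 38.1 CPM, just above DHPG 1 and below the other DHPG libraries. It fell against DHPG (-0.56 ± 0.13, adjusted p = 0.016), also with the set term and without FSK 4 and FSK 5 (-0.42 ± 0.12, adjusted p = 0.048), but not without the term (-0.43, adjusted p = 0.091). Vamp2 had 109, 91.5, 112 and 108 CPM in DMSO, 78.2, 95.3 and 125 CPM in DHPG and 57.3, 71.9 and 120.2 CPM in FSK. The highest FSK value was that of FSK 6, and the other 5 FSK libraries, at 57.3 to 79.9 CPM, were below all DMSO libraries. It did not pass against DMSO (-0.46 ± 0.18, adjusted p = 0.17) or DHPG (-0.35 ± 0.17, adjusted p = 0.11).

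Cplx1 and Cplx2, the complexins of forebrain neurons, differed in their values. Cplx1 had 253, 207, 274 and 242 CPM in DMSO, 209.7, 269 and 314 CPM in DHPG and 112, 194 and 225 CPM in FSK. FSK 6 was the only FSK library inside the DHPG range, and 5 of 6 were below all DMSO libraries. The fall against DHPG was -0.61 ± 0.16 (adjusted p = 0.018), and -0.41 ± 0.10 with the set term and without FSK 4 and FSK 5 (adjusted p = 0.042; -0.40 and adjusted p = 0.09 without the term). Against DMSO it was -0.47 ± 0.17 (adjusted p = 0.14), the smallest unadjusted p of this role. Cplx2 had 265, 220.2, 198 and 224 CPM in DMSO, 189, 295 and 464 CPM in DHPG and 136, 256 and 331 CPM in FSK, with all groups overlapping. It passed in no comparison, with 0.47 ± 0.28 for DHPG against DMSO (adjusted p = 0.43) and 0.14 ± 0.27 for forskolin (adjusted p = 0.81). The ATPase Nsf, at 549 to 1107 CPM over the 16 libraries, and Napb, at 353 to 765 CPM, passed in none, and FSK 4 and FSK 5 were lowest for both.

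Rab3 is the small GTPase that recruits effectors to the vesicle, RIM and rabphilin (Rph3a) among them. None of its 4 genes passed against DMSO, and against DHPG forskolin had Rab3a lower and Rab3c higher. In the latter comparison 14.4% of all features were lower and 16.3% higher. Rab3a, the main isoform of hippocampal synapses, had 397, 302, 349 and 324 CPM in DMSO, 305, 392 and 435 CPM in DHPG and 162, 265 and 291 CPM in FSK. All 6 FSK libraries were below all DMSO and all DHPG libraries. Only Rab3a and Bsn of the 41 (4.88%) were lower in every FSK library than in every DMSO library, against 4.36% of all features. The change was -0.65 ± 0.15 against DHPG (adjusted p = 0.016) and -0.51 ± 0.17 against DMSO, which did not pass (adjusted p = 0.11). With the set term the value against DMSO was -0.60 ± 0.15 (adjusted p = 0.027), and -0.37 ± 0.12 when FSK 4 and FSK 5 were also left out (adjusted p = 0.14). The fall against DHPG passed with the set term and without FSK 4 and FSK 5 (-0.44 ± 0.10, adjusted p = 0.042), and without the term had -0.44 (adjusted p = 0.09).

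Rab3c moved the other way. It had 109, 126, 127 and 224 CPM in DMSO, 83.0, 121 and 160.1 CPM in DHPG and 133, 183 and 217 CPM in FSK. DMSO 4 was above the highest FSK library, while the 3 shallow FSK libraries were above all DHPG libraries. Against DHPG it rose by 0.58 ± 0.20 (adjusted p = 0.038), and by 0.71 ± 0.20 with the set term and without FSK 4 and FSK 5 (adjusted p = 0.047), but it did not pass with the set term in all 16 libraries (0.57 ± 0.21, adjusted p = 0.058) or without those 2 libraries and no term (0.73, adjusted p = 0.09). Against DMSO it had 0.29 ± 0.22 (adjusted p = 0.48). Rab3a and Rab3c thus passed in opposite directions in the same comparison, and no test of the difference between them was made. Rab3b, at 7.13 to 40.2 CPM over the 16 libraries, and Rph3a, at 45.0 to 116 CPM, passed in none.

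**Figure D3:**
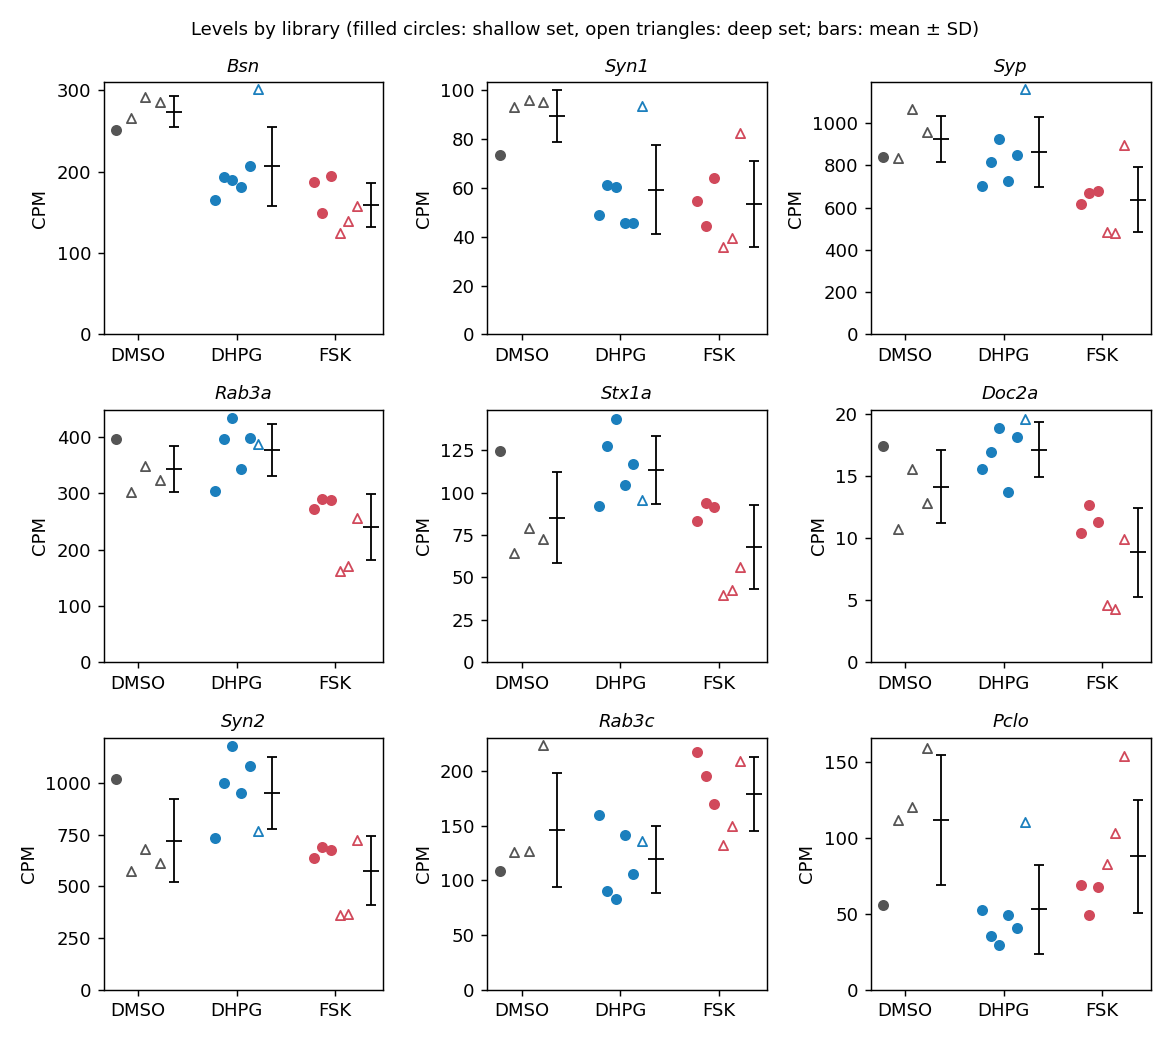
Levels (CPM, axes from 0) of 9 release genes in every library of DMSO, DHPG and FSK, with filled circles for the shallow set, open triangles for the deep set and bars for mean ± SD. All FSK points of Bsn and Rab3a lie below all DMSO points (4.88% of the 41 genes, 4.36% of all features). The points of Pclo separate by library set, the deep ones above (2.44% of the 41, 6.03% of all features).

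The active zone scaffold is built on bassoon and piccolo, giant proteins of the presynaptic cytomatrix, with RIM, ELKS (Erc2) and the Munc13 priming factors. Of these 7 genes Bsn fell with forskolin against DMSO and Unc13a against DHPG, and the medians were -0.09 and -0.05. Over all features 0.46% were lower against DMSO and 14.4% against DHPG. Bsn had 251, 266, 292 and 286 CPM in DMSO 1 to 4, 165, 192 and 301 CPM in DHPG and 125, 154 and 195 CPM in FSK. Every FSK library was below every DMSO library. The DHPG libraries overlapped both groups, since DHPG 6, the deep library, was at 301 CPM and the 5 shallow ones were at 165 to 207 CPM. Bsn fell by 0.79 ± 0.16 on the log2 scale with forskolin against DMSO (adjusted p = 0.034). Between forskolin and DHPG the difference was -0.38 ± 0.14 (adjusted p = 0.052), and between DHPG and DMSO -0.41 ± 0.16 (adjusted p = 0.4).

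For forskolin against DMSO, Bsn was lower in every fit run, while it did not pass in every one. The log2 fold change was -0.76 ± 0.16 with the set term (adjusted p = 0.017), -1.002 ± 0.12 within the deep set (adjusted p = 0.00041) and -0.50 ± 0.17 within the shallow set, against DMSO 1 alone (adjusted p = 0.35). Without FSK 4 and FSK 5 it was -0.67 ± 0.16 (adjusted p = 0.097), and -0.52 ± 0.15 with the set term added (adjusted p = 0.12). Leaving out 1 library at a time gave -0.85 to -0.73 with adjusted p between 0.0072 and 0.16, and the call was lost without DHPG 2, DHPG 5, FSK 2, FSK 4, FSK 5 or any of the 4 DMSO libraries. In the authors' deposited table Bsn had a log2 fold change of -0.80 with forskolin (adjusted p = 3.6e-05).

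Unc13a encodes Munc13-1, which opens syntaxin and primes vesicles. It had 311, 224, 273 and 256 CPM in DMSO, 240.1, 291 and 329 CPM in DHPG and 146, 225 and 253 CPM in FSK, where FSK 2 and FSK 3 overlapped the lowest DHPG library. The fall against DHPG was -0.47 ± 0.14 (adjusted p = 0.024), and -0.29 without FSK 4 and FSK 5 (adjusted p = 0.11). Rims1, the RIM scaffold that links Rab3, Munc13 and calcium channels, had 109, 103, 119.5 and 132 CPM in DMSO, 85.2, 113 and 133 CPM in DHPG and 71.8, 122 and 129 CPM in FSK. The groups overlapped apart from FSK 4, and forskolin against DMSO gave -0.09 ± 0.16 (adjusted p = 0.79).

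Pclo, the gene of piccolo, followed the library set more than the treatment. Its 7 deep libraries, at 82.9 to 159 CPM, were all above its 9 shallow ones, at 29.3 to 69.0 CPM, and it was the only gene of the 41 with that order (6.03% of all features). DHPG against DMSO was -1.07 ± 0.37 (adjusted p = 0.4), the largest difference in size of any of the 41 in any comparison, and -0.46 ± 0.22 with the set term (adjusted p = 1). Forskolin against DHPG was 0.73 ± 0.34 (adjusted p = 0.1), and it passed with the set term and without FSK 4 and FSK 5 (0.56 ± 0.16, adjusted p = 0.045). Rims2 (34.1 to 58.3 CPM over the 16 libraries), Unc13b (24.4 to 35.6 CPM) and Erc2 (97.4 to 212 CPM) passed in no comparison.

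Vesicle retrieval is represented by dynamin 1 (Dnm1), which cuts the membrane neck, amphiphysin (Amph), which recruits dynamin, endophilin A1 (Sh3gl2) and synaptojanin 1 (Synj1), which strips clathrin coats. None of the 4 passed against DMSO (medians -0.25 with forskolin and 0.22 with DHPG), and Dnm1 and Amph were lower with forskolin than with DHPG, as were 14.4% of all features. Dnm1 had 656, 502, 656 and 569 CPM in DMSO, 611, 672 and 737 CPM in DHPG and 255, 522 and 606 CPM in FSK, and Amph had 288, 184, 197 and 192 CPM in DMSO, 228, 258 and 303 CPM in DHPG and 110.0, 198 and 220.1 CPM in FSK. For both genes every FSK library was below every DHPG library. They belonged to 7 of the 41 with that order, besides Syn2, Syngr1, Syt5, Doc2a and Rab3a, against 4.03% of all features. Dnm1 fell by 0.54 ± 0.19 (log2, adjusted p = 0.046), a call lost with the set term (-0.46, adjusted p = 0.061) and without FSK 4 and FSK 5 (-0.26, adjusted p = 0.12). Amph fell by 0.56 ± 0.18 (adjusted p = 0.03; -0.32 without FSK 4 and FSK 5, adjusted p = 0.13). Against DMSO Dnm1 had -0.37 ± 0.22 with forskolin (adjusted p = 0.34).

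Sh3gl2, whose promoter holds the full cAMP response element, was the reverse of Pclo by library set. Its 7 deep libraries had 11.7 to 29.0 CPM and its 9 shallow ones 45.0 to 54.8 CPM, and it was the only one of the 41 with the deep libraries wholly below (3.59% of all features). It passed in no comparison, with 0.04 ± 0.37 for forskolin against DMSO (adjusted p = 0.96). Synj1 had 148 to 150 CPM in the 3 shallow FSK libraries and 116 to 131 CPM in the 5 shallow DHPG libraries, and it rose against DHPG with the set term and without FSK 4 and FSK 5 (0.24 ± 0.06, adjusted p = 0.043), a fit in which those 2 libraries, the lowest of the FSK group at 120 and 121 CPM, take no part. In all 16 libraries it had 0.15 ± 0.16 (adjusted p = 0.48).

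The spread between libraries limited what could be seen. The 3 groups shared 1 estimate of it in the fit, so the FSK libraries also enter the SE of DHPG against DMSO. The coefficient of variation of the CPM had a median over the 41 genes of 16.2% in DMSO, 14.5% in DHPG and 25.4% in FSK. It ran from 1.29% (Sv2c) to 38.3% (Pclo) in DMSO, from 3.73% (Nsf) to 58.7% (Syn3) in DHPG and from 5.92% (Unc13b) to 52.5% (Sh3gl2) in FSK.

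Other genes of the vesicle cycle, outside the 41, were taken from 5 lists. None of their tested genes passed in either comparison with DMSO. The smallest p with forskolin in each list was that of Snap23 (0.68 log2, adjusted p = 0.11), Syt10 (0.79, 0.18), Lin7b (-0.57, 0.13), Sncb (-0.92, 0.066) and Pacsin1 (-0.54, 0.061). With DHPG it was that of Stx12 (0.31, adjusted p = 0.4), Syt10 (-0.52, 0.44), Rimkla (0.43, 0.41), Rab11b (-0.22, 0.4) and Ston2 (-0.75, 0.4).

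Between forskolin and DHPG all 5 lists had calls, where 16.3% of all features were higher and 14.4% lower (30.8% in all). Of the other SNARE and fusion genes 16 of 18 were tested, 2 were higher (Snap23, 0.76, and Vamp7, 0.62) and those lower included Napa (-0.49), Snap47 (-0.52) and Stx6 (-0.29). Snap23 and Vamp7 are SNAREs also found outside neurons. Of the other synaptotagmins and calcium sensors 10 of 12 were tested and Syt10, a synaptotagmin of IGF-1 vesicles in olfactory neurons, was higher (1.31 ± 0.30, adjusted p = 0.016). All 22 other active zone genes were tested, with Lin7c higher (0.85) and 6 lower, Rimkla (-0.73), Ppfia4 (-0.70), Ppfia3 (-0.63), Lin7b (-0.58), Rab3ip (-0.56) and Madd (-0.50), the last a Rab3 exchange factor.

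Of the other vesicle proteins 18 of 20 were tested, with 2 higher and 7 lower. The lower genes of smallest p were Scamp5 (-0.63), Svop (-0.60), Rab3d (-0.59) and the proton pump subunits Atp6v0a1 (-0.43) and Atp6ap1 (-0.42), and Sypl, a synaptophysin relative found outside neurons too, was higher (0.56). All 23 other endocytosis genes were tested, with 3 higher, Picalm (0.57), Itsn2 (0.52) and Ston2 (1.05), and 9 lower. Among the lower ones, subunits of the AP-2 clathrin adaptor, Ap2a1 (-0.63), Ap2a2 (-0.70) and Ap2s1 (-0.66), and the clathrin light chain Clta (-0.47) had the smallest p. The medians of the 5 lists, in the order given, were -0.09, -0.14, -0.13, -0.39 and -0.22. With the set term and without FSK 4 and FSK 5 the calls were 2 lower among the SNARE genes, 2 higher among the synaptotagmins, 1 lower among the active zone genes, 1 lower among the vesicle proteins, and 3 higher and 4 lower among the endocytosis genes. In that fit 4.79% of all features were higher and 4.48% lower.

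Markers of cell types also had calls in the same comparison of forskolin with DHPG, where 16.3% of all features were higher and 14.4% lower. Of 14 pan-neuronal markers 1 was higher and 6 lower (median -0.42), of 13 excitatory markers 2 lower (-0.12) and of 12 inhibitory markers 2 higher and 1 lower (-0.28). Of 14 microglia markers 10 were higher (2.71), of 10 astrocyte markers 5 higher (0.56), of the 11 tested oligodendrocyte lineage markers 6 higher and 1 lower (1.11), and of 8 choroid plexus and ependymal markers 3 higher (1.2). None of 12 tested endothelial, mural and fibroblast markers passed (0.80), and 2 of 4 tested neuroendocrine markers were lower (-0.54). No marker of these 9 lists passed in either comparison with DMSO. With forskolin against DMSO the microglia list had a median of 3.27. At an unadjusted p under 0.05, 13 of its 14 markers were higher, against 1868 of the 17173 features. In FSK 1, 2, 3 and 6 the pan-neuronal sum was 4027 to 4167 CPM and the microglia sum 27.2 to 56.4 CPM. The part of these markers in the 17 calls among the release genes was not tested.

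**Figure D4:**
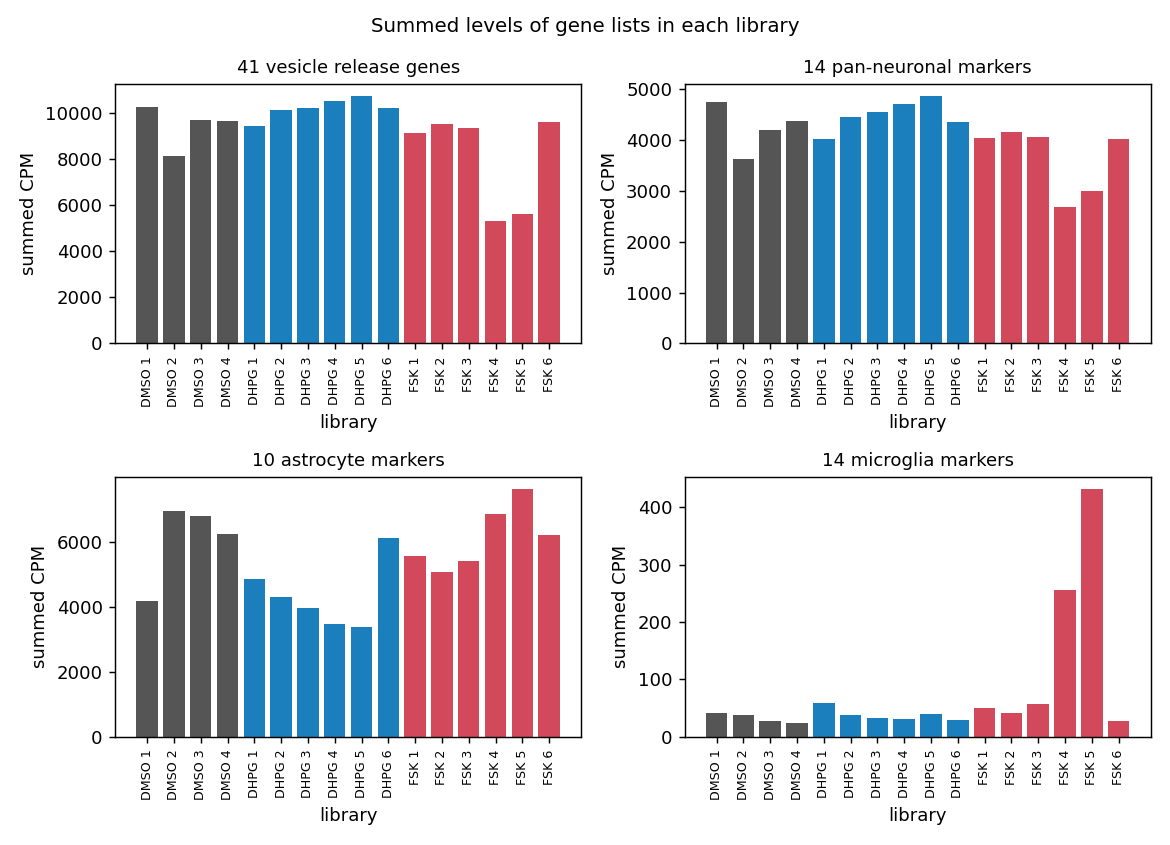
Summed levels (CPM, bars from 0) of the 41 release genes and of pan-neuronal, astrocyte and microglia markers in each library, coloured by treatment. FSK 4 and FSK 5 have the lowest sums of release genes (5308 and 5613 CPM) and of pan-neuronal markers (2687 and 2989 CPM), and the highest of microglia markers (256 and 431 CPM).

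The authors' deposited tables of comparisons with DMSO can be set beside these values. For forskolin, 2 of the 41 genes have an adjusted p under 0.05 in the authors' deposited table, Bsn, given above, and Syn1 (-0.75, adjusted p = 0.035), and the median of its log2 fold changes is -0.29. For DHPG, the authors' deposited table has 1, Sv2b (0.39, adjusted p = 0.038), with a median of 0.14. No log2 fold change of the 41 differs from the value computed here by more than 0.0158 in these tables.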

How the data were processed

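Total RNA of 16 libraries of hippocampal neurons was analysed (4 DMSO, 6 DHPG and 6 FSK libraries, grouped by the labels' agent). The miRNA libraries of the series were not used here. Libraries were made with a stranded total RNA kit, per the labels' protocols, so that reads of overlapping genes on opposite strands can be told apart. The deposited table holds estimated counts, made with Salmon on GRCm38 per the submitters' processing notes (version not given in the sources used here), and 26.6% of its values are not whole. The authors' deposited tables of comparisons, made with DESeq per the submitters' processing notes, give log2 fold changes and p-values, quoted only where named. Columns named Control were taken as the DMSO samples of the same number.

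The deposited estimated counts were first rounded to integers. Features were filtered by filterByExpr (minimum count 10; 17173 of 51267 left), scaled by TMM factors (trimmed mean of M values) and tested with edgeR 4.0.16's robust quasi-likelihood F test, the 3 groups in 1 fit (R 4.3.3). P-values were adjusted by Benjamini-Hochberg over all features tested, with a limit of 0.05, and the script was tested on simulated data. The table gives no transcript length, so CPM levels are compared within a gene and not between genes. Each library held 202297 to 416969 counts of the 41 genes.

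Alternatives were DESeq2 (1.42.0) size factors and Wald test, library totals without TMM, limma-voom (3.58.1) with sample quality weights, no filter, a minimum count of 5, leaving out each library, a replicate block, a term for the library set, fits within each set (a lone library of a group is assumed to vary like the other groups), and fits without FSK 4 and FSK 5. The genes, the lists and these alternatives were chosen with earlier results of these data known. Besides the 41 genes, lists covered other SNARE and fusion genes, synaptotagmins, active zone genes, vesicle proteins and endocytosis genes, immediate-early genes and markers of 9 cell types. Levels are given for genes that passed in any comparison, for the gene of smallest p in each role with forskolin against DMSO, and for Syn1, Syp, Snap25, Vamp2, Syt1, Syt4, Syt7, Cplx2 and Rims1. They are the value of each DMSO library and the lowest, median and highest values of DHPG and of FSK. Outside the 41, up to 6 passing genes of a list, or the 1 of smallest p, are named. Values for Sv2b, Pclo, Sh3gl2 and Synj1 were added after they were seen. One gene of the lists outside the 41 is not reported here by name.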

Additional observations from a re-analysis of the deposited data

Results flagged for a closer look

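In 15 of 123 sets of values (a gene in a treatment group) the highest or lowest library lay far from the rest by Dixon's criterion, which chance meets in about 1 of 20 sets. The criterion uses the gap beside 1 extreme library, so it can miss 2 libraries that lie far out together. FSK 4 and FSK 5, lowest of all libraries for 30 of the 41 genes, are in none of the 15 sets. DHPG 6, the deep library of its group, accounted for 6 of them. It was high for Syn1 (93.4 CPM, the other 5 at 45.5 to 61.3), Rph3a (116, others 45.0 to 59.2), Bsn (301, others 165 to 207), Pclo (110 CPM, others 29.3 to 52.7) and Synj1 (188, others 116 to 131), and low for Sh3gl2 (27.2, others 46.9 to 54.8). DMSO 1, the shallow library of its group, accounted for 4. It was low for Syn1 (73.6 CPM, others 93.0 to 95.8) and high for Syt2 (25.5, others 15.3 to 15.4), Nsf (1050, others 891 to 911) and Amph (288, others 184 to 197). FSK 6 was high for Vamp2 (120 CPM, others 57.3 to 79.9), Rph3a (105, others 53.1 to 64.7) and Synj1 (220, others 120 to 150). DHPG 4 was high for Syt4 (102 CPM, others 71.2 to 82.6) and DMSO 4 for Rab3c (224, others 109 to 127).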

How the results depend on the processing

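The number of the 41 genes that passed changed with several choices, and the cause was not tested. The share of all features that passed in the same fit follows in parentheses. For forskolin against DMSO (1 passed) it was 4 by DESeq2's Wald test (7.43%), 0 with library totals (0.361%), 6 with the set term (9.45%), 15 by limma-voom with quality weights (35.2%), 10 within the deep set (11.8%), 0 within the shallow set (0.0466%), 0 without FSK 4 and FSK 5 (0.227%) and 0 without them with the set term (0.335%). For DHPG against DMSO (0 passed) only limma-voom gave calls, 19 (34.7%). For forskolin against DHPG (17 passed) it was 6 with library totals, all lower (4.37% of features lower), 10 without a filter, all lower (3.48% of features lower, 8.22% in all), 0 within the shallow set (0.0466%), 0 without FSK 4 and FSK 5 (0.0179%) and 9 without them with the set term (9.27%). DESeq2's Wald test had 2 higher and 17 lower there (3404 and 2952 of 17173 features). By limma-voom 5 were higher and 15 lower (2964 and 2819 of 17173 features). Library totals also moved the balance over all features, to 49 higher and 13 lower for forskolin against DMSO (60 and 79 with TMM) and to 1760 higher and 750 lower against DHPG (2803 and 2480 with TMM). Leaving out 1 library gave 0 to 1, 0 to 0 and 5 to 18 calls in the 3 comparisons. For same-numbered libraries the correlations of their deviations from the group means ran from -0.405 to 0.394, and 3 of 14 were over 0.1. These deviations still held the library set: shallow DMSO 1 had 0.543 with shallow FSK 2 and -0.487 with deep FSK 4. Several same-numbered libraries came from different sets, so these correlations cannot decide whether equal numbers share a culture. With the replicate block 5 genes were lower for forskolin against DMSO (Bsn, Rph3a, Syn1, Syp and Vamp2; 1.4% of features lower, 3.09% in all), 0 passed for DHPG (0.0%) and 18 for forskolin against DHPG (24.3%). The genes reported as passing without any of these changes, 1 for forskolin against DMSO and 17 for forskolin against DHPG, kept their sign in every alternative. Genes that passed only in an alternative did not all do so: Rph3a against DMSO was -0.57 with the block and 0.10 without FSK 4 and FSK 5 with the set term.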
